A study of Chlorocebus sabaeus with 3 samples.

Results

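The EGF family ligands and the ERBB receptors were followed through the cell-free RNA of vervet monkey (Chlorocebus sabaeus) amniotic fluid. The set held 10 of the 33994 genes listed in each file, chosen by gene name: the 6 ligands EGF, AREG, EREG, HBEGF, TGFA and BTC and the 4 receptors EGFR, ERBB2, ERBB3 and ERBB4. All 10 were listed and all 10 were above 0 in at least 1 library. RNA was isolated from amniotic fluid supernatant, the fluid without its cells, amplified by single-primer isothermal amplification (SPIA) and sequenced. There was 1 pregnancy per status, and the libraries are called stillborn, spontaneous abortion and alive fluid after it. The stillborn fetus was labelled M and the alive one F, and the label of the spontaneous abortion was NA. The libraries held 17749954, 29926352 and 20220899 assigned reads in that order. The labels state neither gestational age nor the time of sampling. With 1 sample a status, libraries and not conditions were compared, no p-value was computed, and all intervals cover counting error only. Status also cannot be told apart from animal, from fetal sex where it is labelled, or from library.

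ERBB receptors are tyrosine kinases of epithelia that pair on binding a ligand and then drive the RAS-MAPK and PI3K-AKT routes. The ligands are made as membrane-bound precursors, and shedding proteases release their active part. EGFR binds EGF, AREG, EREG, HBEGF, TGFA and BTC; ERBB4 also binds BTC, EREG and HBEGF; ERBB2 has no known ligand; and ERBB3 is nearly without kinase activity and signals through its partners. Amniotic fluid bathes fetal skin, airway and gut, epithelia in which this family governs growth and repair.

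Receptor RNA stood far above ligand RNA in every library. All levels are deposited RPKM values, which scale reads to gene length and to the library total. Summed RPKM of the 4 receptors was 23.1 in stillborn, 21.4 in spontaneous abortion and 19.7 in alive fluid, while the 6 ligands summed to 3.21, 2.64 and 1.47 in the same order. The receptor sum was thus 7.20, 8.09 and 13.5 times the ligand sum. In reads, the receptors had 2318, 3603 and 2238 and the ligands 214, 351 and 178. The proportion of receptor to ligand reads differed less between libraries than that of the RPKM sums, which weigh short genes more. No ligand reached RPKM 1 in any library, and 3 of the 4 receptors were above RPKM 1 in all 3. In such fluid, fewer cells of a type and less RNA per cell cannot be told apart.

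**Figure D1:**
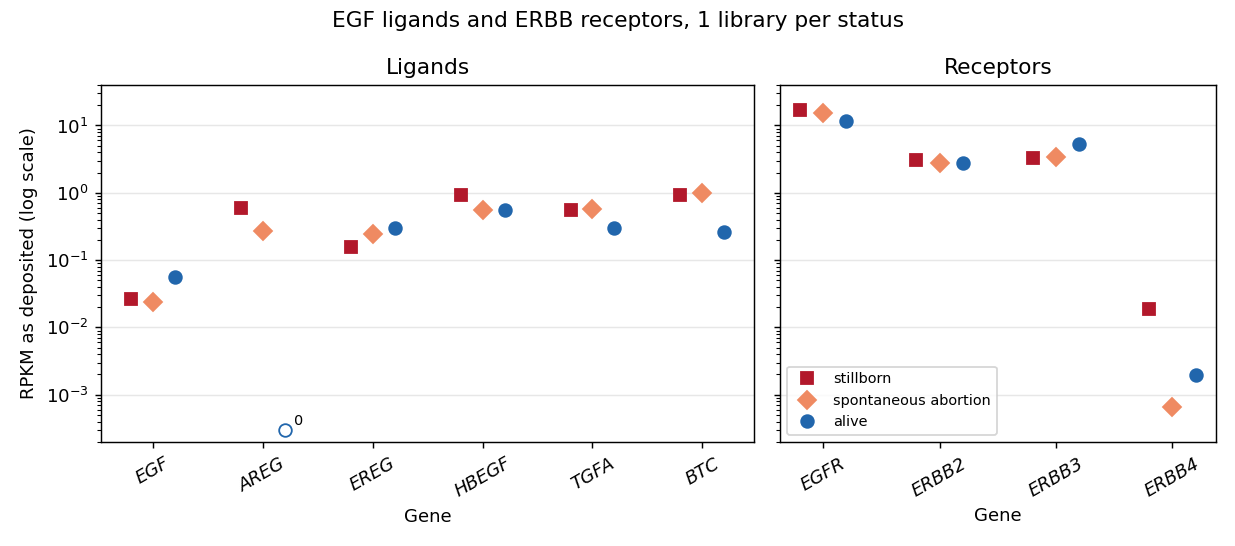
RPKM as deposited (log axis) of the 6 ligands and the 4 receptors in stillborn, spontaneous abortion and alive fluid, 1 point per library and no error bar because each status has 1 sample. EGFR, ERBB2 and ERBB3 lie above RPKM 1 in all 3 libraries, and the open circle marks AREG, listed at 0 in the alive library.

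EGFR, the receptor shared by all 6 ligands, was the highest member by a wide margin. It was at RPKM 16.8 in stillborn, 15.2 in spontaneous abortion and 11.5 in alive fluid, from 1722, 2631 and 1351 reads. It lay above 93.5%, 92.6% and 90.5% of all listed genes. Ratios between libraries were taken after scaling by the trimmed mean of M-values (TMM), which raises every ratio of stillborn over alive by 0.16 and of stillborn over spontaneous abortion by 0.12 on the log2 scale. EGFR was 1.62-fold higher in stillborn than in alive fluid (95% interval 1.51 to 1.75) and 1.35-fold higher in spontaneous abortion than in alive fluid (1.27 to 1.45). Stillborn over spontaneous abortion gave 1.20 (1.13 to 1.28). Scaled to total assigned reads, the stillborn ratios were 1.45 over alive and 1.10 over spontaneous abortion.

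ERBB3, the kinase-poor partner receptor, ran the other way. Its RPKM was 3.26 in stillborn, 3.44 in spontaneous abortion and 5.39 in alive fluid, from 333, 592 and 627 reads. Both losses lay below the alive library, 1.48-fold lower in the stillborn (1.29 to 1.69) and 1.53-fold lower in the spontaneous abortion (1.36 to 1.71), and the losses themselves differed by less than counting error, with a ratio of 1.03 (0.900 to 1.18). ERBB2, the receptor without a ligand, was nearly level at RPKM 3.02, 2.76 and 2.78 in stillborn, spontaneous abortion and alive fluid, from 246, 379 and 258 reads. Its ratio was 1.22 for stillborn over alive (1.02 to 1.45) and 1.02 for spontaneous abortion over alive (0.869 to 1.20).

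The balance of EGFR to ERBB3 therefore differed between libraries, and it depends on no scaling because both are read in the same library. EGFR RPKM was 5.14 times that of ERBB3 in the stillborn and 4.42 times in the spontaneous abortion library, against 2.14 times in the alive library. Relative to the alive library this balance was 2.40-fold higher in the stillborn (2.06 to 2.79) and 2.06-fold higher in the spontaneous abortion (1.81 to 2.35). Both comparisons use the same alive library. This pair of receptors was named after its values were seen, and no share over other pairs of genes was computed. The balance of EGFR to ERBB2 was 1.34-fold higher in the stillborn (1.11 to 1.61) and 1.33-fold in the spontaneous abortion (1.12 to 1.57). That of ERBB2 to ERBB3 was 1.80-fold (1.44 to 2.24) and 1.56-fold higher (1.28 to 1.89). EGFR held 72.7%, 71.0% and 58.6% of the receptor sum and ERBB3 14.1%, 16.1% and 27.3% in stillborn, spontaneous abortion and alive fluid, while ERBB2 held 13.1%, 12.9% and 14.1%.

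ERBB4, the receptor of the neuregulins as well as of EGF-type ligands, was near 0. It had 17 reads in stillborn, 1 in spontaneous abortion and 2 in alive fluid, or RPKM 0.0189, 0.000659 and 0.00195. The stillborn library was the highest, with a ratio of 10.8 over the alive library (2.57 to 96.7) and of 31.2 over the spontaneous abortion (4.89 to 1304). These ratios rest on 2 reads and on 1 read in the lower library, and in thinned libraries they were 19.2 and 18.9.

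**Figure D2:**
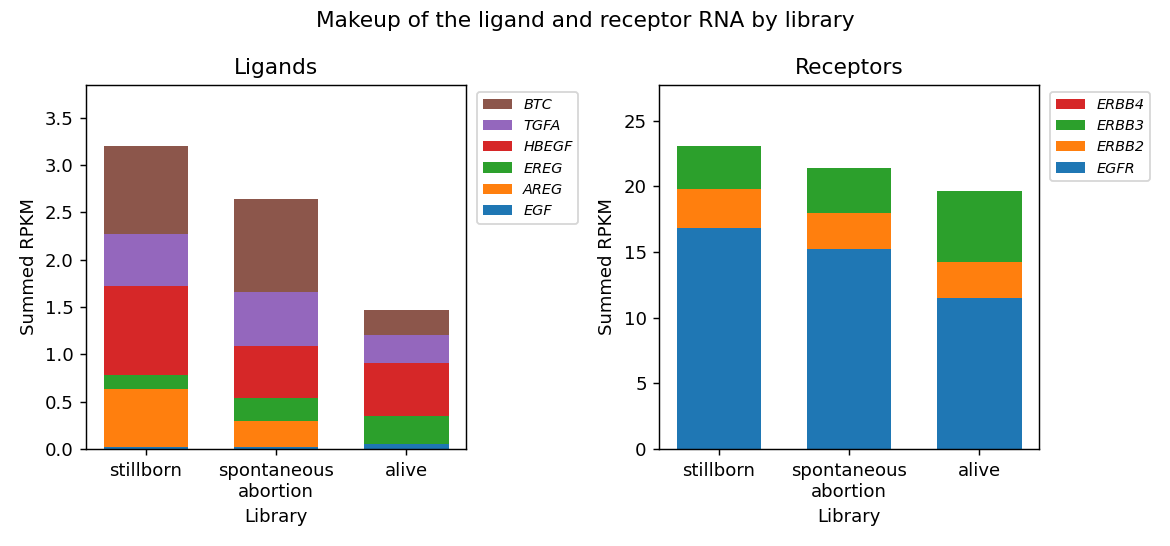
Summed RPKM of the 6 ligands (left) and the 4 receptors (right) in stillborn, spontaneous abortion and alive fluid, stacked by gene. The ligand sum is 3.21, 2.64 and 1.47 and the receptor sum 23.1, 21.4 and 19.7, and ERBB3 takes 27.3% of the receptor sum in the alive library; ERBB4 is too small to see.

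Among the ligands, betacellulin (BTC), which activates both EGFR and ERBB4, was higher in both losses. It was at RPKM 0.928 in stillborn, 0.983 in spontaneous abortion and 0.262 in alive fluid, from 28, 50 and 9 reads. The losses lay close together, at a ratio of 1.03 (0.623 to 1.66), and neither was near the alive library: the ratio over it was 3.97 for the stillborn (1.82 to 9.55) and 3.86 for the spontaneous abortion (1.88 to 8.92). BTC made up 29.0%, 37.2% and 17.9% of the ligand sum.

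TGFA, transforming growth factor alpha and an autocrine ligand of keratinocytes, had the most reads of the ligands in the stillborn and spontaneous abortion libraries. Its RPKM was 0.556 in stillborn, 0.567 in spontaneous abortion and 0.299 in alive fluid, from 85, 146 and 52 reads. It was 2.08-fold higher in stillborn than in alive fluid (1.46 to 3.0) and 1.95-fold higher in the spontaneous abortion (1.41 to 2.73), with the losses at a ratio of 1.07 (0.808 to 1.41).

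Amphiregulin (AREG), a ligand known from epithelial repair, was listed at 0 in the alive library only. It had 20 reads and RPKM 0.604 in the stillborn library and 15 reads and RPKM 0.269 in the spontaneous abortion library. With 3 reads put in place of 0 in the alive library, the ratio over it was 8.50 for the stillborn and 3.47 for the spontaneous abortion. The lower bounds of the exact intervals were 6.29 and 2.49. The stillborn library was also above the spontaneous abortion, with a ratio of 2.45 (1.19 to 5.14). At so few reads the size is loose. In libraries thinned to the smallest total, the ratio for spontaneous abortion over the same 3 reads was 2.03, below the bound of 2.49. Stillborn over spontaneous abortion was then 3.70.

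HBEGF, the heparin-binding ligand, was higher in the stillborn library alone. Its RPKM was 0.933 in stillborn, 0.553 in spontaneous abortion and 0.553 in alive fluid, from 40, 40 and 27 reads. The ratio was 1.89 for stillborn over alive (1.13 to 3.20), 1.84 for stillborn over spontaneous abortion (1.15 to 2.92) and 1.03 for spontaneous abortion over alive (0.616 to 1.74).

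Epiregulin (EREG) and EGF itself lay on the other side, with the alive library highest. EREG, which binds EGFR and ERBB4, was at RPKM 0.157, 0.248 and 0.297 in stillborn, spontaneous abortion and alive fluid, from 33, 88 and 71 reads. It was 1.69-fold lower in stillborn than in alive fluid (1.10 to 2.63), while the interval for spontaneous abortion over alive held 1, at a ratio of 0.861 (0.622 to 1.19). EGF was the lowest ligand in stillborn and spontaneous abortion fluid and the lowest above 0 in alive fluid, at RPKM 0.0267, 0.0237 and 0.0556 from 8, 12 and 19 reads. It was 2.28-fold lower in spontaneous abortion than in alive fluid (1.05 to 5.15) and had a ratio of 0.537 in the stillborn (0.203 to 1.28). With all libraries thinned at random to the smallest total, the ratio for spontaneous abortion over alive was 0.268, against 0.439 without thinning. Kidney tubules of the thick ascending limb are a known source of EGF, and their 4 listed markers UMOD, SLC12A1, CLDN16 and CASR summed to RPKM 0.0373, 0.0859 and 0.125 in stillborn, spontaneous abortion and alive fluid. CLDN16 carried most of that sum, with 5, 26 and 29 reads. UMOD, which defines this segment, had 1, 1 and 0 reads, SLC12A1 3, 5 and 5, and CASR 0, 1 and 0. In the RefSeq table EGF overlaps LOC103236113, a protein-coding gene listed at RPKM 1.60, 2.16 and 4.52 in stillborn, spontaneous abortion and alive fluid. Reads in the overlap cannot be assigned without the counting settings. ERBB2 likewise overlaps MIEN1, at RPKM 28.2, 29.4 and 37.9.

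**Figure D3:**
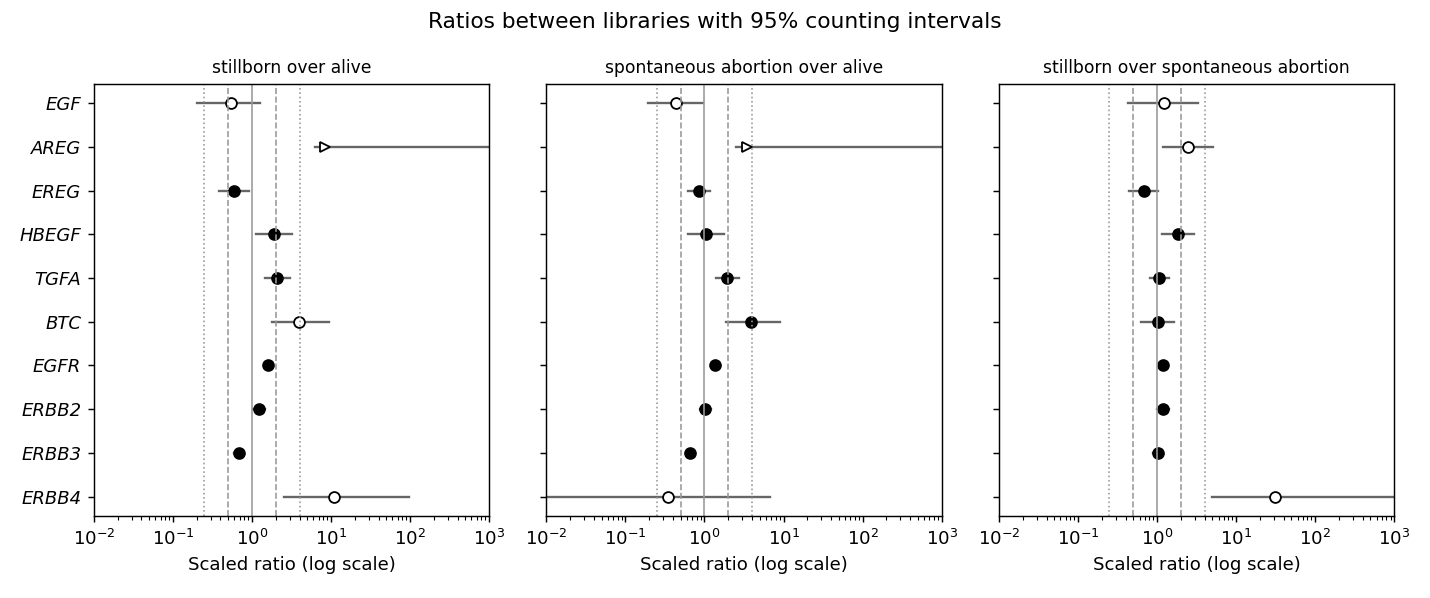
Scaled ratio (log axis) of each member between libraries in 3 pairs, with exact 95% counting intervals; filled points have at least 30 reads in the higher library, open points fewer, and triangles are AREG against 3 reads in the alive library. Solid, dashed and dotted lines mark a ratio of 1, of 2-fold and of 4-fold, and intervals that run past the axis are cut at its end. BTC sits near 4-fold for both losses over alive and near 1 between the losses.

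The term apart is used for a gene whose ratio passed a given fold, whose interval left out 1, and whose higher library had at least 30 reads. At least 30 reads were held by 6 of the 10 members for stillborn over alive and by 7 of 10 in each of the other pairs. EGF, AREG and ERBB4 fell short in every pair, and BTC fell short for stillborn over alive, where its higher library had 28 reads. At 4-fold, 0 members were apart in any pair, beside 7.94% of the 13500 genes with that depth for stillborn over alive, 3.82% of 13857 for spontaneous abortion over alive and 4.46% of 13861 for stillborn over spontaneous abortion. At 2-fold, TGFA was apart as higher in stillborn than in alive fluid, 1 of 6 members beside 13.1% of all genes on that side and 25.6% on either side. BTC was apart as higher in spontaneous abortion than in alive fluid, 1 of 7 beside 7.69% on that side and 13.4% on either side. Between the losses 0 of 7 were apart, beside 15.0%. With 6 or 7 genes, 1 gene is close to these backgrounds. TGFA was not apart when libraries were scaled to total assigned reads, where 0 of 6 members were, beside 26.8% of all genes. Over all 10 members the median log2 difference of RPKM + 0.1 was 0.48 for stillborn over alive, 0.03 for spontaneous abortion over alive and 0.16 for stillborn over spontaneous abortion, beside 0.00, 0.02 and -0.02 over all 23276 genes above 0. Taking AREG at 3 reads in the alive library left the members' medians as they were. They could not move, since AREG lay above both medians over alive either way. The pair of losses does not use the alive library. Over EGFR, ERBB2 and ERBB3, the 3 that averaged RPKM 1 or more, the median was 0.27, 0.03 and 0.24. With a minimum of 10 reads, AREG and ERBB4 were apart by 4-fold for stillborn over alive, beside 11.7% of all genes.

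The members lie on 7 chromosomes of the RefSeq table, with EGF, AREG, EREG and BTC on chromosome 7. EPGN, EREG and AREG follow each other there, and a pseudogene separates AREG from BTC. By RPKM, AREG, BTC and EPGN were highest in a loss and lowest in the alive library, while EREG was highest in the alive library. EPGN (epigen, a further EGFR ligand of epithelia) was at RPKM 0.278, 0.704 and 0.194 in stillborn, spontaneous abortion and alive fluid.

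Levels per length depend on the gene length that the authors used. That length could be solved from the values, and it exceeded the whole span of the gene in RefSeq for 2732 of 17567 genes, or 15.6%. It was 50705 bases for ERBB4, 30777 for EPGN, 16892 for EGF and 11841 for EREG, against 1699 for BTC, 1866 for AREG and 2415 for HBEGF. No member's length exceeded its span, whereas that of EPGN did. The order by reads can therefore differ from that by RPKM. EREG had 88 reads in spontaneous abortion and 71 in alive fluid, more than the 40 and 27 of HBEGF, but a lower RPKM than HBEGF in both. Ratios between libraries do not depend on this length.

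The other ligands of the family, EPGN and the neuregulins NRG1 to NRG4, were also low in RPKM, but not all were low in reads. EPGN had 152, 648 and 121 reads and NRG4 291, 257 and 340 in stillborn, spontaneous abortion and alive fluid. Both had more reads than any member ligand in every library. Their solved lengths were 30777 and 24305 bases, and that of EPGN exceeded its span in RefSeq. Low RPKM therefore need not mean little RNA for these genes. NRG4, an ERBB4 ligand, was at RPKM 0.675 in stillborn, 0.353 in spontaneous abortion and 0.692 in alive fluid, and was 2.08-fold higher in stillborn than in spontaneous abortion fluid (1.75 to 2.47). EPGN was 3.72-fold higher in spontaneous abortion than in alive fluid (3.06 to 4.55) and 2.32-fold lower in stillborn than in spontaneous abortion fluid (1.94 to 2.79). NRG3 had 3, 23 and 15 reads. At least 30 reads were held by 2 of the 5 genes for stillborn over alive and by 3 in each of the other pairs, and 0 of these were apart by 4-fold. At 2-fold, 0 of 2 were apart for stillborn over alive, beside 25.6% of all genes. For spontaneous abortion over alive 2 of 3 were higher (EPGN and NRG1), beside 7.69%. For stillborn over spontaneous abortion 1 of 3 was higher (NRG4) and 2 lower (EPGN and NRG1), beside 7.55% and 7.49%. NRG1 was named after its values were seen.

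The sheddases ADAM10 and ADAM17 stood above every ligand in RPKM. ADAM10, which releases EGF and BTC in mouse cells, was at RPKM 5.13, 6.08 and 6.18, and ADAM17, which releases TGFA, AREG, EREG and HBEGF in mouse cells, was at 3.27, 2.18 and 3.11 in stillborn, spontaneous abortion and alive fluid. ADAM17 was 1.39-fold lower in spontaneous abortion than in alive fluid (1.21 to 1.61). FRMD8, a stabiliser of the iRhom-ADAM17 complex, was at RPKM 1.45, 2.65 and 3.71 and was 2.28-fold lower in stillborn than in alive fluid (1.80 to 2.90). It was the 1 gene of the 5 with at least 30 reads that was apart by 2-fold in that pair, beside 12.5% of all genes on the low side and 25.6% on either side. In each of the other pairs 0 of 6 were, beside 13.4% and 15.0%.

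Of the 21 adaptors and kinases below the receptors, all with at least 30 reads, 0 were apart by 4-fold in any pair, beside 7.94%, 3.82% and 4.46% of all genes for stillborn over alive, spontaneous abortion over alive and stillborn over spontaneous abortion. At 2-fold 1, 0 and 0 were apart, beside 25.6%, 13.4% and 15.0%. The 1 was PLCG1, the phospholipase recruited to EGFR, which was 2.44-fold lower in stillborn than in alive fluid (2.19 to 2.73), with RPKM 2.35, 4.71 and 6.42 in stillborn, spontaneous abortion and alive fluid. PLCG1 was named after its values were seen. Of all genes that also averaged RPKM 1 or more, as 20 of the 21 did, 18.8%, 7.21% and 8.46% were apart by 2-fold in these pairs. By 4-fold it was 3.84%, 1.41% and 1.79%. MAPK3 was at RPKM 43.4, 43.8 and 48.5 and NRAS at 43.1, 44.2 and 35.4 in stillborn, spontaneous abortion and alive fluid. The median log2 difference over the 20 genes that averaged RPKM 1 or more was -0.08 for stillborn over alive, 0.03 for spontaneous abortion over alive and -0.17 for stillborn over spontaneous abortion, beside -0.01, -0.01 and -0.02 over all genes.

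Among negative regulators of the pathway, 2 of 16 were apart by 4-fold for stillborn over alive. SPRY2, a Sprouty inhibitor of RAS-MAPK signalling that is itself induced by it, was at RPKM 0.425 in stillborn, 0.512 in spontaneous abortion and 0.114 in alive fluid, from 62, 126 and 19 reads. It was 4.16-fold higher in stillborn than in alive fluid (2.45 to 7.37) and 4.61-fold higher in the spontaneous abortion (2.83 to 7.90). DUSP5, a nuclear phosphatase of MAP kinases, was at RPKM 23.6, 9.09 and 5.61, or 4.70-fold higher in stillborn than in alive fluid (4.13 to 5.36) and 1.67-fold higher in the spontaneous abortion (1.45 to 1.91). DUSP6, a cytoplasmic phosphatase of MAP kinases, was at RPKM 29.1, 44.6 and 14.8, and was 2.20-fold higher in the stillborn (2.04 to 2.38) and 3.10-fold higher in the spontaneous abortion (2.90 to 3.32) than in the alive library. LRIG1, which promotes the breakdown of ERBB receptors, was at RPKM 3.28, 1.94 and 1.18 and was 3.11-fold higher in stillborn than in alive fluid (2.67 to 3.64). DUSP6 and LRIG1 were named after their values were seen.

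DUSP4, another MAP kinase phosphatase that was likewise named after its values were seen, was 2.93-fold lower in stillborn than in alive fluid (2.64 to 3.27). ERRFI1, a direct inhibitor of EGFR kinase, was high and nearly level at RPKM 46.4, 56.1 and 47.3 in stillborn, spontaneous abortion and alive fluid. Of the 16 listed genes, 2 were apart as higher by 4-fold and 0 as lower for stillborn over alive, beside 4.71% and 3.23% of all genes, and 1 and 0 for spontaneous abortion over alive, beside 2.31% and 1.51%. At 2-fold, 4 were apart as higher and 1 as lower for stillborn over alive, beside 13.1% and 12.5% of all genes, 2 and 0 for spontaneous abortion over alive, beside 7.69% and 5.72%, and 1 and 1 for stillborn over spontaneous abortion, beside 7.55% and 7.49%. On either side that is 5, 2 and 2 of 16, near the 25.6%, 13.4% and 15.0% of all genes. Of all genes that also averaged RPKM 1 or more, as 15 of the 16 did, 18.8%, 7.21% and 8.46% were apart by 2-fold. The median log2 difference over 15 genes was 0.13 for each loss over alive and -0.15 for stillborn over spontaneous abortion. Over all genes it was -0.01 for each loss over alive and -0.02 between the losses.

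Of 15 targets of EGFR-MAPK signalling, 12 had at least 30 reads, and CCND1 was the 1 apart by 4-fold, as higher for stillborn over alive, beside 4.71% of all genes. Cyclin D1, the G1 cyclin it encodes, was at RPKM 17.2 in stillborn, 6.99 in spontaneous abortion and 4.17 in alive fluid, or 4.62-fold higher in stillborn than in alive fluid (3.86 to 5.56) and 1.72-fold higher in the spontaneous abortion (1.43 to 2.09). PLAUR, the urokinase receptor, was 2.88-fold higher in the stillborn (2.23 to 3.74) and 2.29-fold higher in the spontaneous abortion (1.80 to 2.93) than in the alive library. HMGA2, a chromatin protein of fetal and mesenchymal cells, was 2.96-fold lower in the stillborn (2.40 to 3.68) and 3.55-fold lower in the spontaneous abortion (2.97 to 4.27) than in the alive library. PHLDA1, a pleckstrin homology protein, was 2.90-fold lower in spontaneous abortion than in alive fluid (2.35 to 3.60). At 2-fold, 2 of the 12 were apart as higher and 1 as lower for stillborn over alive, beside 13.1% and 12.5% of all genes. For spontaneous abortion over alive it was 1 and 2, beside 7.69% and 5.72%, and for stillborn over spontaneous abortion 2 and 0, beside 7.55% and 7.49%. PLAUR, HMGA2 and PHLDA1 were named after their values were seen. KLF6 was at RPKM 78.6, 91.9 and 58.2 and FOS at 57.0, 85.5 and 54.2 in stillborn, spontaneous abortion and alive fluid. The list's median log2 difference over 11 genes was 0.40 for stillborn over alive, 0.31 for spontaneous abortion over alive and 0.33 for stillborn over spontaneous abortion. Over all genes it was -0.01, -0.01 and -0.02. Of the 11 targets, 10, 7 and 6 were positive and 1, 4 and 5 negative in these pairs. Over all 15 targets the medians were 0.37, 0.09 and 0.22.

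Over the 63 pathway genes outside the 10 members, 3 of 56 with at least 30 reads, or 5.36%, were apart as higher by 4-fold and 0 as lower for stillborn over alive, beside 4.71% and 3.23% of all genes. For spontaneous abortion over alive it was 1 of 58 as higher, or 1.72%, and 0 as lower, beside 2.31% and 1.51%, and for stillborn over spontaneous abortion 0 of 58, beside 4.46%. The shares of higher genes were thus near those of all genes. At 2-fold the shares on either side were 17.9%, 12.1% and 12.1%, beside the 25.6%, 13.4% and 15.0% of all genes. Those shares include many low genes, while 50 of the 63 pathway genes averaged RPKM 1 or more. Of all genes that also averaged RPKM 1 or more, 18.8%, 7.21% and 8.46% were apart by 2-fold and 3.84%, 1.41% and 1.79% by 4-fold.

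**Figure D4:**
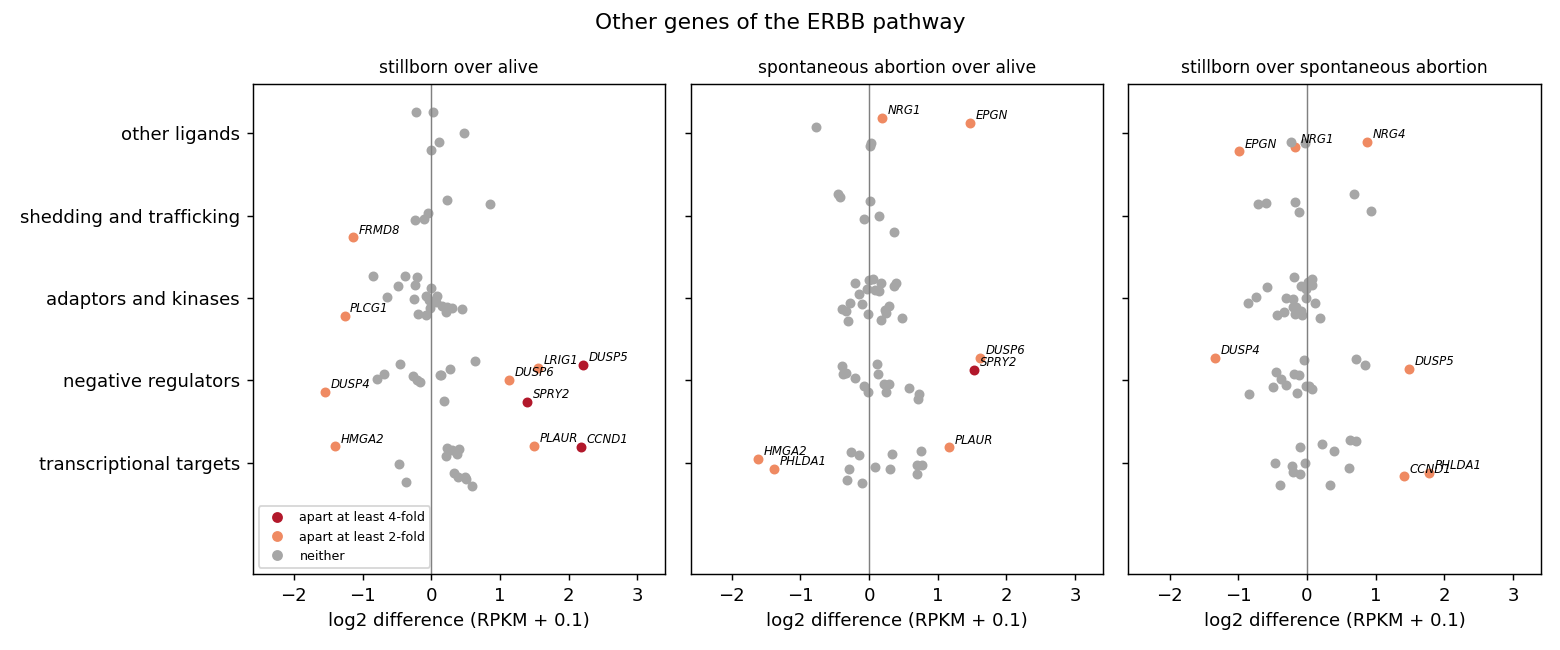
log2 difference of TMM-scaled RPKM with a pseudocount of 0.1, for each gene of 5 pathway lists in 3 pairs of libraries; red points are apart by at least 4-fold, orange by at least 2-fold and grey by neither, and the height within a list is random. DUSP5, SPRY2 and CCND1 are the red points for stillborn over alive, at 2.21, 1.40 and 2.18, and no adaptor or kinase is red in any pair.

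Cell type markers moved between the same libraries, and their part in the values above was not tested. The 7 squamous markers were KRT4, KRT13, KRT6A, MAL, CRNN, SPRR3 and EMP1. They summed to RPKM 1042 in stillborn, 523 in spontaneous abortion and 246 in alive fluid, all 7 with at least 10 reads in each. KRT6A was the largest part, at 588, 254 and 135. KRT6A, MAL, CRNN, SPRR3 and EMP1 were highest in stillborn and lowest in alive fluid. KRT4, at 18.0, 29.2 and 18.1, and KRT13, at 24.0, 33.7 and 19.5, were instead highest in spontaneous abortion fluid. The 5 basal epithelial markers summed to 85.9, 174 and 171, most of it KRT5 at 49.1, 151 and 151, and they were split for stillborn over alive. COL17A1 was 8.44-fold (6.96 to 10.3), KRT14 9.39-fold (8.05 to 11.0) and TP63 2.48-fold higher (1.39 to 4.57) in stillborn than in alive fluid, while KRT15 was 6.04-fold (5.31 to 6.90) and KRT5 2.75-fold lower (2.68 to 2.82). The 5 simple epithelial markers summed to 436, 578 and 718, most of it KRT19 at 316, 434 and 554, and were split as well. KRT8 was 2.33-fold (2.11 to 2.57), KRT19 1.57-fold (1.53 to 1.61) and KRT18 1.22-fold lower (1.16 to 1.3) in stillborn than in alive fluid, while EPCAM was 2.35-fold (1.98 to 2.80) and CDH1 1.52-fold higher (1.33 to 1.73). Of the myeloid list, 7 of 8 markers were listed, with sums of 54.3, 13.6 and 13.7, and S100A8 was at 0 in the alive library. For spontaneous abortion over alive they were split. CD14 was 8.48-fold (4.15 to 19.6), C1QB 5.28-fold (1.39 to 29.5) and TYROBP 4.53-fold lower (1.87 to 12.5) in the spontaneous abortion. C1QB had 3 and 11 reads and TYROBP 7 and 22. S100A9 was 2.63-fold higher (1.44 to 5.13), and S100A8 had 8 reads against 0. CD68 and LYZ had ratios of 1.28 (0.944 to 1.76) and 0.974 (0.755 to 1.26). The 6 listed trophoblast markers of 8 summed to 86.3, 104 and 93.9, most of it GATA3 at 46.3, 61.1 and 48.8. TFAP2A was at 18.7, 24.0 and 26.3, HTRA4 at 13.5, 13.6 and 13.5, and ERVFRD-1 at 7.64, 4.76 and 5.18. ERVFRD-1 was 1.65-fold higher in stillborn than in alive fluid (1.43 to 1.90). GCM1 was at 0 in the stillborn and alive libraries, PAPPA2 was at 0.161, 0.133 and 0.107, and CYP19A1 and HSD3B1 were not listed. The 6 fibroblast markers summed to 300.4, 329 and 223, most of it LUM at 222, 239 and 158, and were split too. COL1A2 was 2.52-fold (2.38 to 2.66) and LUM 1.57-fold higher (1.52 to 1.62) in stillborn than in alive fluid. DCN was 1.43-fold lower (1.33 to 1.54). COL1A1 and COL3A1 each had a ratio of 1.10, and PDGFRA had 16, 8 and 11 reads.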

How the data were processed

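Each deposited file holds RPKM for 33994 genes of 1 library. Of tools, bcl2fastq 2.17, STAR and HTSeq are named, per the submitters' processing notes. Genome build, gene models, strandedness and the way the authors made RPKM: not given in the sources used here.

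Library totals and gene lengths were solved as the whole numbers that make reads whole within the rounding of the printed digits. This held for 23275 of 23276 genes above 0. A factor common to a gene's reads and length stays unseen, so reads are lower bounds, whose sums reach 96.6% to 97.1% of the solved totals. On simulated reads for stillborn over alive (33994 genes, counting error only), 3 of 3 totals were solved. Of the genes, 92.1% had the right reads and 0 lay above the truth. There, 100 of 100 genes changed 8-fold were apart by 4-fold and 0 unchanged genes were. With counting error only and a change well above the fold asked for, these counts could hardly differ. They do not cover spread from amplification or between animals. Genes apart have passed the minimum of reads, so the counts say nothing on members below it.

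TMM factors were 0.936 (stillborn), 1.02 (spontaneous abortion) and 1.05 (alive). Intervals are exact Clopper-Pearson 95% intervals conditional on the sum of both reads. Those of the balances of EGFR to ERBB3, EGFR to ERBB2 and ERBB2 to ERBB3 use a normal approximation on the log scale. SPIA reads carry no molecular identifiers. Medians use genes that average RPKM 1 or more and a pseudocount of 0.1, which understates low genes. Members and lists were chosen with earlier results of these data known. Outside the members, each list's genes apart by 4-fold were named, filled up to 3 by mean RPKM. Gene names were matched to RefSeq (mChlSab1.0.hap1), where all 10 members were found. Python 3.11.15, numpy 2.4.6 and scipy 1.17.1 were used. One gene that the naming rule picks is not reported here.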

Additional observations from a re-analysis of the deposited data

How the results depend on the processing

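The counts of members apart turn on the minimum of 30 reads. With at least 10 reads, or with no minimum, 2 members (AREG and ERBB4) were apart by 4-fold for stillborn over alive and 1 (ERBB4) for stillborn over spontaneous abortion, against 0 in both with 30 reads. Of all genes, 11.7% and 7.12% were apart at 10 reads and 9.08% and 6.01% with no minimum. By 2-fold they were 4 for stillborn over alive (AREG, TGFA, BTC and ERBB4), 3 for spontaneous abortion over alive (EGF, AREG and BTC) and 2 for stillborn over spontaneous abortion (AREG and ERBB4), against 1, 1 and 0, beside 29.1%, 17.7% and 18.6% of all genes at 10 reads and 23.6%, 14.1% and 14.9% with no minimum. With a mean RPKM of at least 1 required in addition, only 3 members remained. Of these, 0 were apart by 2-fold for stillborn over alive and for spontaneous abortion over alive, beside 18.8% and 7.21% of all genes. Scaled to total assigned reads, the count by 2-fold was 0 for stillborn over alive, and after thinning all libraries to the smallest total it was 0 for spontaneous abortion over alive. Of 90 member ratios recomputed under 3 alternatives (total assigned reads, median-of-ratios size factors, thinning), 87 stayed inside their counting interval and 0 that were apart changed direction. Outside lay EGFR for stillborn over alive (1.45) and over spontaneous abortion (1.10), both at total assigned reads. AREG for spontaneous abortion over alive (2.03, thinned) was the other. Median-of-ratios factors were close to the TMM factors, and intervals at few reads were wide, so most ratios could hardly leave theirs. Only TGFA and BTC were apart by 2-fold, in 1 pair each, so few ratios could change direction. Ligands below about 30 reads can be described but hardly ranked at this depth. No paired analysis was possible because each status has 1 sample.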
